A study of Mus musculus with 2 samples.

Results

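The 30 genes described here carry glucose and glycogen to pyruvate and lactate. They were taken from a written list of pathway genes, which was chosen with earlier results of these data known. All 30 were present among the 28692 genes of the files and had UMIs (unique molecular identifiers, 1 for each captured transcript) in both libraries. They were described across the cell groups of the mouse lateral hypothalamic area, a brain region of neurons that act on feeding and arousal. The tissue was cut freshly from C57BL/6 mice of postnatal day 30, dissociated to single cells and measured with droplet 3′ sequencing (10x Chromium, v2 chemistry). One library is labelled male and pools 3 animals, the other is labelled female and pools 2, and all were littermates. No animal was treated and no gene was altered, so the groups compared are cell groups within each library. Animals of a pool cannot be told apart, so there are 2 replicates, the pools. The p-values measure counting error and how the difference between groups varies between the 2 pools. That spread is estimated with the help of all genes tested. The spread between animals is not measured.

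Glycolysis splits glucose into pyruvate through a fixed chain of enzymes, most of which exist as several isoforms encoded by separate genes. Lactate dehydrogenase turns pyruvate into lactate and back, monocarboxylate transporters carry lactate across membranes, and the pyruvate dehydrogenase complex feeds pyruvate to mitochondria. In the brain glycogen is held mainly in astrocytes, the glial cells that contact vessels and synapses, and lactate released by glia is a known fuel of neurons.

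The libraries held 3439 and 3793 barcodes with 23151801 and 27437142 UMIs, of which 3186 and 3520 cells were kept. In each pair of values the library labelled male stands first. Sex-linked genes went against the labels: Xist had 19513 and 30 UMIs, and each of 4 Y-linked genes had 0 UMIs in the library labelled male and 619 to 4281 in the other. The libraries are therefore named by their labels only, and 17 barcode sequences were kept in both. Cells were clustered without the 30 members and without 62 other genes of the same pathways, so no cell group was drawn from them. Groups were named from marker genes and are "-like" in that sense. They held 2039 and 2261 neurons, 118 and 185 astrocytes, 81 and 95 oligodendrocyte precursors, 74 and 104 newly formed oligodendrocytes, 609 and 594 mature oligodendrocytes, 72 and 40 microglia, and 78 and 69 endothelial cells. Among neurons, 986 and 1110 were inhibitory, with Slc32a1 but no Slc17a6 UMIs, and 711 and 784 excitatory, by the reverse rule. Hcrt-high neurons (83 and 83) and Pmch-high neurons (85 and 61) had at least 0.3% of their UMIs from the orexin gene Hcrt or the melanin-concentrating hormone gene Pmch. They were compared with the 600 and 687 other excitatory neurons.

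Levels are CPM, the UMIs of a gene per 1000000 UMIs of its cell group in a library. Fold changes come from edgeR on the summed UMIs of each library and group, after TMM scaling, and a gene was called at an adjusted p under 0.05 over all genes tested. A UMI level depends on how well the 3′ end of a gene is captured, so levels are compared between groups for the same gene and not between genes. TMM centres a comparison on most genes, and it moves the fold of every gene by the same amount against plain library totals. That shift was 0.80 on the log2 scale for mature oligodendrocytes against precursors, 0.72 for mature oligodendrocytes against neurons and 0.50 for astrocytes against mature oligodendrocytes. It was 0.25 and 0.27 for Hcrt-high and Pmch-high against other excitatory neurons, 0.27 for microglia and 0.16 for astrocytes against neurons, and under 0.1 in the other comparisons. Where it turns the direction of a called gene, this is said beside the gene or in the last paragraph. In whole cells, a lower level cannot be told apart from a smaller share of the RNA of a larger cell.

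The 15 members from hexokinase to pyruvate kinase summed to 4768 and 4510 CPM in neurons and to 4863 and 4648 CPM in astrocytes. The astrocyte sum rested on Aldoc, the brain form of aldolase: without it astrocytes had 2862 and 2690 CPM and neurons 4441 and 4197 CPM. Microglia had 2953 and 3097 CPM, oligodendrocyte precursors 2023 and 2018 CPM and endothelial cells 1985 and 1610 CPM. In CPM the sum was lowest in newly formed oligodendrocytes, at 1375 and 1271 CPM, and in mature oligodendrocytes, at 1256 and 1196 CPM. These sums carry no TMM scaling. For mature oligodendrocytes against precursors, the median log2 fold change over the members was 0.0042 after TMM scaling and -0.80 with library totals. The order of mature oligodendrocytes and precursors can thus depend on the scaling. Ordered by mean level over the 10 separate cell groups, 8 members were highest in astrocytes, 7 in inhibitory neurons, 4 in Pmch-high neurons, and 3 each in Hcrt-high neurons and microglia. Another 2 were highest in endothelial cells, and 1 each in precursors, newly formed and mature oligodendrocytes. For 13 of the 30 the libraries of the highest group overlapped those of the next, among them 5 of the 7 in inhibitory neurons, 2 of the 3 in microglia and 1 of the 8 in astrocytes. The same ordering was not made for all genes, so these counts cannot be set against those of other genes.

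**Figure D1:**
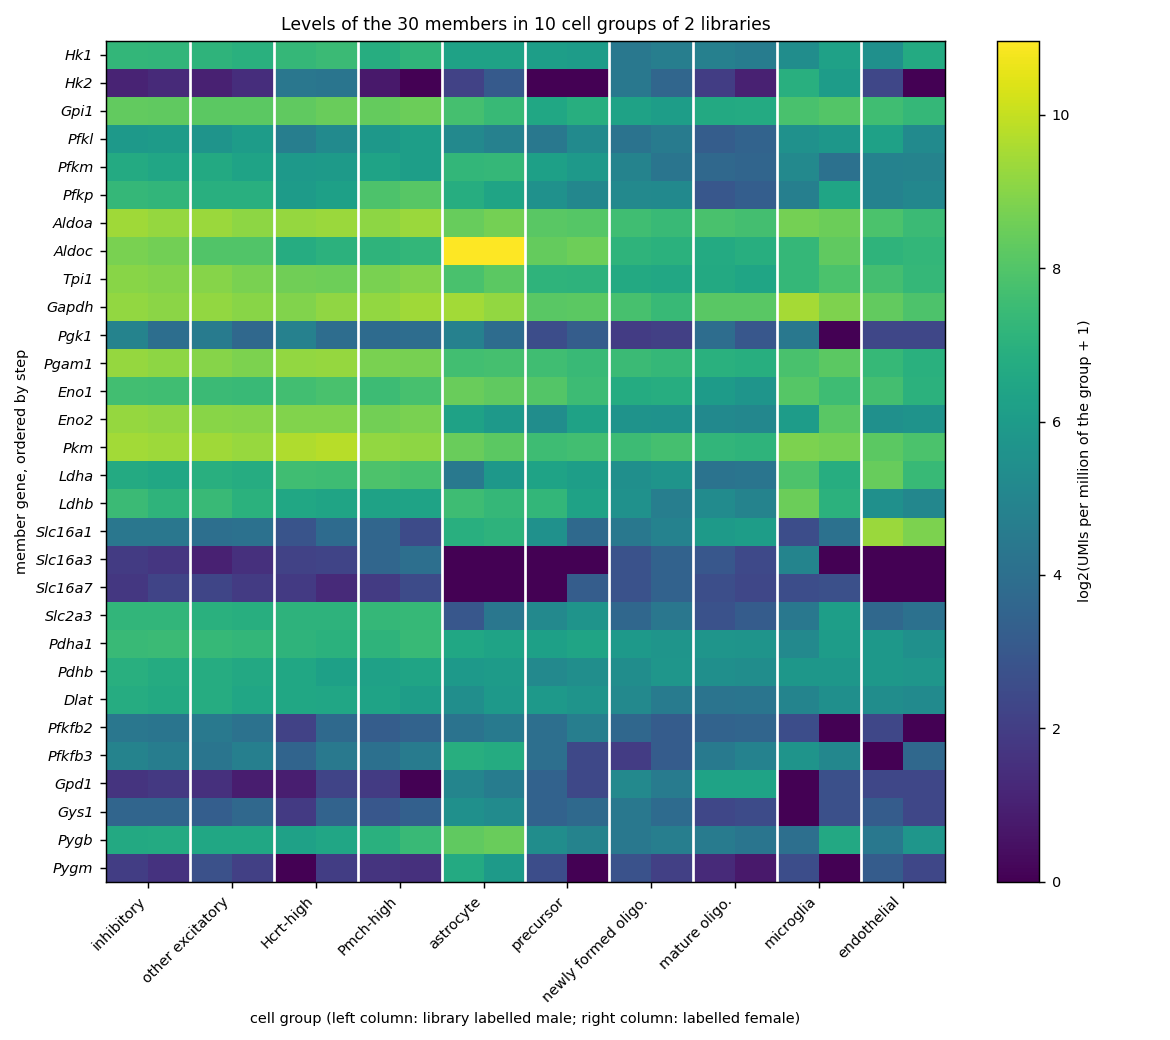
Level of each of the 30 members, as log2 of CPM plus 1 (colour), in 10 cell groups (columns, the library labelled male left and the library labelled female right in each); colours are to be compared along a row. Most rows are bright in the 4 neuron groups and dark in the oligodendrocyte lineage, while Aldoc, Pygb, Pygm and Pfkfb3 are brightest in astrocytes, Slc16a1 in endothelial cells, Gpd1 in mature oligodendrocytes and Hk2 in microglia.

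Astrocytes had higher levels of glycogen genes, of selected isoforms of glycolysis and of the lactate transporter Slc16a1 than neurons, and lower levels of most other glycolysis genes. Gpd1, given with the oligodendrocytes below, was also above its neuron level in both libraries. Of 30 members tested, 11 were higher (36.7%, against 21.0% of all genes tested) and 13 lower (43.3%, against 25.3%). The median log2 fold change was -0.46 over the members and -0.16 over all genes. All comparisons with neurons below share the same neurons.

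The 3 glycogen genes of the list were higher in astrocytes. Pygm, the muscle form of glycogen phosphorylase, which releases glucose units from glycogen, had 103 and 61.7 CPM in astrocytes and 3.19 and 2.42 CPM in neurons. All other cell groups were below both astrocyte libraries, and the astrocyte level was 31.8-fold that of neurons (log2 4.99 ± 0.36 SE, adjusted p = 1.36e-41). Pygb, the brain form of the same enzyme, had 310 and 347 CPM in astrocytes and 97.5 and 102 CPM in neurons, a log2 fold change of 1.88 ± 0.15 (adjusted p = 1.35e-35). The libraries of the groups did not overlap for either gene. Gys1, the glycogen synthase found in most tissues, had 44.8 and 38.5 CPM against 8.92 and 11.1 CPM (log2 2.16 ± 0.37). With cells limited to at most 10% mitochondrial UMIs and at least 1000 genes, 22 and 17 astrocytes were left, and there the Gys1 value was -0.24 and not called. Pfkfb3, which makes the activator of phosphofructokinase, had 117 and 108 CPM in astrocytes and 23.0 and 23.5 CPM in neurons (log2 2.42 ± 0.22, adjusted p = 1.82e-26). Pygm UMIs were found in 21.2% and 16.2% of astrocytes against 2.55% and 2.12% of neurons, and in 17.8% and 11.4% against 0.442% and 0.31% after each cell was thinned to 2000 UMIs.

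Within glycolysis the astrocyte levels differed by isoform. Aldoc had 2001 and 1958 CPM in astrocytes and 327 and 312 CPM in neurons, 6.91-fold apart (log2 2.79 ± 0.11, adjusted p = 5.6e-132). Its sister gene Aldoa was lower in astrocytes, with 341 and 403 CPM against 641 and 578 CPM (log2 -0.53 ± 0.13). The enolase genes split in the same manner: Eno1, found in most tissues, had 355 and 312 CPM against 193 and 189 CPM (log2 0.95 ± 0.13), and Eno2, the neuron form, had 79.2 and 59.7 CPM against 536 and 526 CPM (log2 -2.82 ± 0.18, adjusted p = 1.77e-52). Of the phosphofructokinase genes, which set the pace of glycolysis, Pfkm was higher (152 and 158 CPM against 96.2 and 81.4 CPM, 1.99-fold) and Pfkl lower (log2 -0.84 ± 0.28). Pfkp was not called, at 114 and 82.9 CPM against 144 and 138 CPM.

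Of the remaining steps of the trunk most were lower in astrocytes, Gapdh was higher and Pgk1 was not called. Pgam1, a phosphoglycerate mutase, had 200.3 and 212 CPM against 544 and 506 CPM (log2 -1.17 ± 0.14), and Pkm, pyruvate kinase, 351 and 295 CPM against 682 and 648 CPM (log2 -0.90 ± 0.13). Hk1, the main brain hexokinase, Gpi1, glucose-6-phosphate isomerase, and Tpi1, triose-phosphate isomerase, were lower by log2 values from -0.69 to -0.62. Gapdh, glyceraldehyde-3-phosphate dehydrogenase, was slightly higher (692 and 582 CPM against 571 and 535 CPM, log2 0.35 ± 0.12), but missed the call with library totals (log2 0.20, adjusted p = 0.11) and turned to -0.42, not called, in the 22 and 17 astrocytes of the stricter filter. All 3 pyruvate dehydrogenase genes of the list, Pdha1, Pdhb and Dlat, were lower, by log2 values from -0.76 to -0.58. Under the stricter filter none of the 3 was called, and Pdhb and Dlat also lost the call in DESeq2 and after thinning.

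At the lactate step, Ldha was lower in astrocytes, with 20.7 and 55.9 CPM against 128 and 112 CPM in neurons (log2 -1.30 ± 0.23, adjusted p = 1.54e-07). The libraries differed in size, with log2 values of -2.40 and -0.78. Ldhb, the other subunit of lactate dehydrogenase, had 189 and 158 CPM against 158 and 129 CPM, and its higher call (log2 0.44 ± 0.17) was lost with library totals and in DESeq2 and turned to -0.70, not called, under the stricter filter. Slc16a1, which encodes the lactate transporter MCT1, had 121 and 135 CPM in astrocytes and 16.2 and 17.1 CPM in neurons (log2 3.11 ± 0.23, adjusted p = 1.64e-41). Slc16a3 and Slc16a7, for MCT4 and MCT2, had 0 UMIs in astrocytes of both libraries. A count of 0 allows up to 10.3 and 5.78 CPM there (3 UMIs, counting error only), and neurons had 3.13 and 3.56 CPM of Slc16a3 and 2.90 and 3.32 CPM of Slc16a7, so no difference was detectable at this depth. Slc2a3, the neuron glucose transporter GLUT3, had 6.89 and 19.3 CPM in astrocytes and 140 and 137 CPM in neurons (log2 -3.06 ± 0.31).

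Free RNA can carry transcripts of any cell group into other droplets. In astrocytes neuron markers summed to 2132 and 1673 CPM and mature oligodendrocyte markers to 4615 and 4592.5 CPM. Astrocyte markers summed to 17661 and 18788 CPM in astrocytes and to 140 and 181 CPM in neurons, with none of the 9 at 0. Aldoc in neurons was at 16.3% and 16.0% of its astrocyte level and Pygb at 31.5% and 29.5%. The median share of mitochondrial UMIs was 13.1% and 14.2% in astrocytes and 7.98% and 8.57% in neurons, and median UMIs per cell were 2260 and 2543 against 7745 and 8126. Erythrocyte markers were 24.1 and 4255 CPM in the astrocytes of the libraries. The part of these differences in the calls was not tested. Of the 24 calls, 14 were kept in every alternative in which the gene was tested, none of which removes free RNA.

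**Figure D2:**
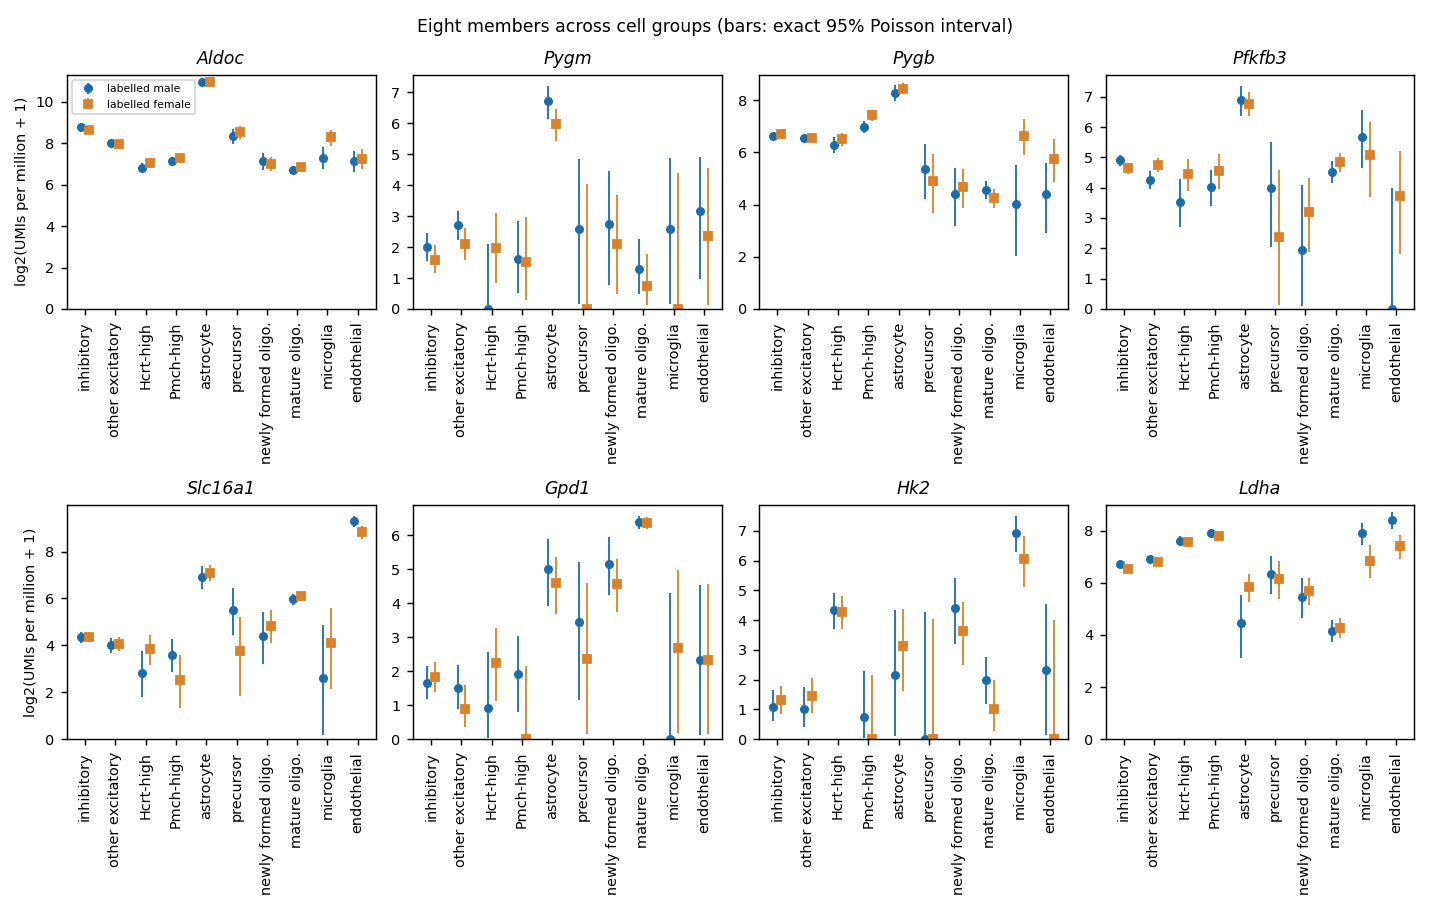
Levels of 8 members as log2 of CPM plus 1 (points, with exact 95% Poisson intervals that cover counting error only) in 10 cell groups of the library labelled male (circles) and labelled female (squares). Aldoc, Pygm, Pygb and Pfkfb3 peak in astrocytes, Slc16a1 in endothelial cells, Gpd1 in mature oligodendrocytes and Hk2 in microglia, while Ldha is high in both endothelial cells and Pmch-high neurons.

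Of 62 other genes of these pathways, 51 could be tested and 22 were higher and 13 lower in astrocytes. The 3 highest by fold at 20 CPM or more were Slc2a4, Phkg1 and Ppp1r3c. Phkg1, a subunit of phosphorylase kinase, which switches glycogen phosphorylase on, had 355 and 399 CPM in astrocytes and 3.07 and 2.08 CPM in neurons. Ppp1r3c, a glycogen-targeting subunit of protein phosphatase 1, had 162 and 133 CPM against 4.11 and 5.59 CPM. Slc2a4, the insulin-responsive glucose transporter, rested on 10 and 6 UMIs in astrocytes. Among the lowest were Slc2a13, a myo-inositol transporter (24.1 and 7.71 CPM against 207 and 195 CPM), and Pgm2l1, which makes glucose-1,6-bisphosphate (41.3 and 32.8 CPM against 299.6 and 301 CPM).

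Mature oligodendrocytes, the myelin-forming cells, had lower levels of nearly the whole glycolysis chain than neurons and higher levels of Gpd1 and Slc16a1. Of 30 members tested, 5 were higher (16.7%, against 34.0% of all genes) and 20 lower (66.7%, against 38.9%), with a median log2 fold change of -0.93 over the members and -0.11 over all genes. With library totals 3 members were called higher, against 19.6% of all genes, and 24 lower, against 62.0%, and none of the 25 called genes turned in direction in the alternatives tested.

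Gpd1, which makes glycerol-3-phosphate from a glycolysis intermediate, had 82.4 and 81.1 CPM in mature oligodendrocytes and 1.85 and 1.73 CPM in neurons. The fold was 74.7 (log2 6.22 ± 0.16, adjusted p = 7.72e-22), and Gpd1 was 20.3-fold higher than in precursors, which had 10.0 and 4.14 CPM (log2 4.35 ± 0.45). Newly formed oligodendrocytes lay between, at 34.7 and 22.8 CPM. Astrocytes had 31.0 and 23.1 CPM, also above the 1.85 and 1.73 CPM of neurons. Gpd1 UMIs were found in 28.1% and 29.5% of mature oligodendrocytes and 1.57% and 1.55% of neurons, and in 13.6% and 15.2% against 0.246% and 0.31% after thinning. Slc16a1 had 61.4 and 66.8 CPM against 16.2 and 17.1 CPM in neurons (log2 2.66 ± 0.12, adjusted p = 1.98e-16). Slc16a3 (6.99 and 4.41 CPM) and Slc16a7 (5.15 and 4.07 CPM) were called higher at low levels, and both lost the call in DESeq2. Pfkfb3 had 22.1 and 27.8 CPM against 23.0 and 23.5 CPM, and its higher call (log2 0.83 ± 0.16) was lost with library totals (log2 0.11, adjusted p = 0.54).

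Among the 20 lower members were Slc2a3, at 5.89 and 8.14 CPM against 140 and 137 CPM (log2 -3.57 ± 0.16), Pfkp, at 6.99 and 8.82 CPM against 144 and 138 CPM (log2 -3.43 ± 0.15), and Eno2, at 36.4 and 33.2 CPM against 536 and 526 CPM (log2 -3.21 ± 0.09). Ldha and Ldhb were both lower, by log2 -2.04 ± 0.13 and -1.38 ± 0.11. The smallest difference was that of Gapdh, with 284 and 282 CPM against 571 and 535 CPM (log2 -0.25 ± 0.06). Of the other pathway genes, 14 of 51 were higher and 24 lower. Those highest by fold were Pdk3, a kinase that switches pyruvate dehydrogenase off (37.5 and 35.6 CPM against 9.61 and 8.76 CPM), Slc2a1, the glucose transporter GLUT1 (55.2 and 46.5 CPM against 11.99 and 13.7 CPM), and Bpgm, bisphosphoglycerate mutase (202 and 179 CPM against 50.8 and 52.9 CPM). Slc2a13, Emb, a partner protein of monocarboxylate transporters, and Pgm2l1 were lowest by fold.

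Along the lineage, 7 of 26 members tested were higher in mature oligodendrocytes than in precursors (26.9%, against 21.5% of all genes) and 7 lower (26.9%, against 19.8%). These shares lie near the background, and with library totals 2 members were higher and 16 lower, against 9.68% and 44.9% of all genes. Gpd1 and Slc16a1 were the 2 that stayed higher, and Slc16a1 differed between the precursors of the libraries, at 45.2 and 12.4 CPM (fold by library log2 1.18 and 3.01). The higher calls of Aldoa, Gpi1 and Gapdh turned in direction with library totals. Eno1 was lower, with 62.9 and 52.2 CPM against 261 and 182 CPM (log2 -1.14 ± 0.19), as were Aldoc (104 and 115 CPM against 326 and 369 CPM, log2 -0.88 ± 0.15), Pfkm, Pfkp, Ldha, Ldhb and Slc2a3. Of these, Eno1 alone was also called in DESeq2, which called 2 members higher and 1 lower, against 9.50% and 9.21% of all genes. Early response genes, which dissociation is known to induce, summed to 2203 and 414 CPM in precursors and 211 and 148 CPM in mature oligodendrocytes. Their part was not tested. Of the other pathway genes, 7 of 37 were higher and 4 lower. Slc2a1, Bpgm and Pdk3 were highest by fold.

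Set directly against mature oligodendrocytes, astrocytes had 16 of 27 members higher (59.3%, against 23.3% of all genes) and 1 lower (3.7%, against 23.7%). The lower member was Gpd1 (log2 -2.13 ± 0.26). Pygm had 103 and 61.7 CPM against 1.47 and 0.678 CPM and was 51.3-fold higher (log2 5.68 ± 0.40, adjusted p = 6.7e-08). Aldoc (log2 3.68 ± 0.10), Pygb (log2 3.54 ± 0.18), Pfkm (log2 3.26 ± 0.22) and Pfkp (log2 3.09 ± 0.29) followed. Slc16a1 was 1.42-fold higher in astrocytes (log2 0.51 ± 0.17), a call that DESeq2 and the stricter filter did not keep. Of the other pathway genes, 24 of 44 were higher and 4 lower. Phkg1 had 3.31 and 2.37 CPM in mature oligodendrocytes and was 93.0-fold higher in astrocytes, and Slc2a12, a glucose transporter, had 34.4 and 42.4 CPM in astrocytes. Among the lower genes Bpgm, Mpc1, a mitochondrial pyruvate carrier subunit, and Pdk3 had the largest folds.

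Endothelial cells, which line the vessels, had the highest mean levels of Slc16a1 and of Ldha and low levels of most of the chain. Of 30 members, 2 were higher than in neurons (6.67%, against 17.9% of all genes) and 19 lower (63.3%, against 23.0%), with a median log2 fold change of -1.30 over the members and -0.36 over all genes. Slc16a1 had 628 and 448 CPM, 34.0-fold the level in neurons (log2 5.09 ± 0.20, adjusted p = 2.15e-10) and 3.93-fold that in astrocytes (log2 1.97 ± 0.26). It was found in 64.1% and 58.0% of endothelial cells, and in 51.3% and 40.6% after thinning, against 3.05% and 3.58% of thinned neurons. Ldha had 336 and 167 CPM, against 128 and 112 CPM in neurons (log2 1.12 ± 0.21) and 20.7 and 55.9 CPM in astrocytes (log2 2.42 ± 0.31). The Ldha level differed between the libraries by a ratio of 2.01 (95% interval 1.37 to 3.00, counting error only), and the fold against neurons was log2 1.44 and 0.73. For both genes the lower endothelial library was above each library of neurons and astrocytes, but Pmch-high neurons had 239 and 220.4 CPM of Ldha.

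Eno2, at 44.0 and 48.9 CPM, was the called member with the lowest fold against neurons (log2 -3.43 ± 0.27), followed by Slc2a3, at 16.3 CPM or less in both libraries (log2 -3.20 ± 0.37). Ldhb had 44.0 and 32.6 CPM against 158 and 129 CPM (log2 -1.82 ± 0.28), so the dehydrogenase subunits went opposite ways. Pfkfb3 had 0 and 12.2 CPM in endothelial cells, and against astrocytes it was lower by log2 -4.17 ± 0.56, with Aldoc at -3.82 ± 0.25, Pygm at -3.74 ± 0.61 and Pygb at -3.22 ± 0.32. In that comparison 2 of 22 members were higher (9.09%, against 26.1% of all genes) and 14 lower (63.6%, against 25.6%). Slc16a3 and Slc16a7 had 0 UMIs in endothelial cells, which allows up to 12.2 CPM. Early response genes summed to 2457 and 1451 CPM in endothelial cells and 318 and 302 CPM in neurons. Erythrocyte markers were 8659 and 513 CPM, and the 9 markers of mural cells, which wrap vessels, 2069 and 1390 CPM, with Tagln at 0 in the library labelled female. Their part in these results was not tested.

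Among the other pathway genes 7 of 50 were higher than in neurons and 14 lower. Slc2a1 had 836 and 962 CPM against 11.99 and 13.7 CPM in neurons, and Bsg, the chaperone that brings MCT1 to the membrane, 17441 and 11964 CPM against 576 and 535 CPM. Emb had 0 UMIs in endothelial cells, with 60.6 and 54.8 CPM in neurons, and Slc2a13 was also among the lowest by fold. Against astrocytes 5 of 24 were higher and 11 lower, with Bsg and Slc2a1 again among the highest by fold and Phkg1, Ppp1r3c and Phka1, another phosphorylase kinase subunit, lowest.

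Microglia, the resident immune cells, differed from neurons most in Hk2, the hexokinase isoform that is known for its induction in immune and tumour cells. It had 121 and 65.2 CPM in microglia and 2.37 and 2.47 CPM in neurons, 45.8-fold apart (log2 5.52 ± 0.60, adjusted p = 2.84e-18). Hk2 UMIs were in 18 of 72 and 10 of 40 microglia and in 38 of 2039 and 41 of 2261 neurons, and in 20.8% and 12.5% against 0.54% and 0.354% after thinning. The call was kept in all 11 tested alternatives, including the finer clustering that set 14 and 11 perivascular macrophages apart (log2 5.49). Of 30 members 1 was higher (3.33%, against 8.98% of all genes) and 2 lower (6.67%, against 3.88%), shares near or below the background. The median log2 fold change was -0.39 over the members and -0.24 over all genes.

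The microglia of the libraries differed. Microglia markers summed to 28506 and 10702 CPM, neuron markers to 4089 and 10534 CPM with none of 8 at 0, astrocyte markers to 374 and 804 CPM, and early response genes to 11681 and 2249 CPM. Eno2, Slc2a3 and Pfkp, highest in neuron groups, were higher in the library labelled female, at 65.6 and 288 CPM, 20.2 and 70.6 CPM, and 25.2 and 86.9 CPM. Pygb and Aldoc, highest in astrocytes, were higher there too, at 15.1 and 97.8 CPM and 156 and 309.7 CPM. Ldhb had 358 and 130 CPM, Ldha 237 and 114 CPM and Gapdh 712 and 462 CPM, the reverse. The fold of Eno2 was log2 -2.56 and -0.71 in the libraries, and its lower call and that of Pdha1 were lost in DESeq2, with library totals and in the finer clustering. A fit over the sums of all 10 cell groups called 6 of 29 members higher, against 15.6% of all genes, and 9 lower, against 14.2%. It set microglia against the mean of inhibitory and other excitatory neurons, and not against all neurons. The part of neuron and astrocyte RNA in the microglia values was not tested. Of 50 other pathway genes 3 were higher and 2 lower. Slc2a5, the fructose transporter GLUT5, had 131 and 21.7 CPM against 2.78 and 2.23 CPM in neurons, and Slc2a13 and Gaa, the lysosomal glycogen-degrading enzyme, were lower.

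Hcrt-high and Pmch-high neurons, the best known peptide neurons of this region, both had more Ldha and less Ldhb and Aldoc than the other excitatory neurons, and each had a gene of its own that stood far above them. These were Hk2 in Hcrt-high and Slc16a3 in Pmch-high neurons. In both comparisons the Ldha call was kept in every alternative in which the gene was tested, while the lower calls of Ldhb and Aldoc were not. The 2 comparisons share the other excitatory neurons, so each is given by itself. The 250 bases before the start of Ldha, Hk2 and Slc16a3 are shown because ACGTG, the core of the hypoxia response element, occurs in each. The motif and the genes were picked with their values known. They come from RefSeq (GRCm38.p6, 5′ to 3′ on the strand of the gene), and 27 of the 30 members had an entry, with 41 starts. Capitals mark ACGTG or its reverse complement CACGT, and CACGTG, the E-box, holds both. The windows are Ldha at chr7:46845554-46845803 on the plus strand, Hk2 at chr6:82774455-82774704 on the minus strand and Slc16a3 at chr11:120948817-120949066 on the plus strand.
Ldha: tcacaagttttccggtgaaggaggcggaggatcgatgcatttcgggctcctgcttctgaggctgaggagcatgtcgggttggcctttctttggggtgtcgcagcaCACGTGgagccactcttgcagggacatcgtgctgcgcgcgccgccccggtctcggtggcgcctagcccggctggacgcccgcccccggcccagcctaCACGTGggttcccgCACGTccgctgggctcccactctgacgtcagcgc
Hk2: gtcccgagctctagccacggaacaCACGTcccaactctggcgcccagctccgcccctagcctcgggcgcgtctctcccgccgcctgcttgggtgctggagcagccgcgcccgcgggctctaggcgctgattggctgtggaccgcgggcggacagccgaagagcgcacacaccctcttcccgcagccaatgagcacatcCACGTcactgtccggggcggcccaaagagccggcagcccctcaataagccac
Slc16a3: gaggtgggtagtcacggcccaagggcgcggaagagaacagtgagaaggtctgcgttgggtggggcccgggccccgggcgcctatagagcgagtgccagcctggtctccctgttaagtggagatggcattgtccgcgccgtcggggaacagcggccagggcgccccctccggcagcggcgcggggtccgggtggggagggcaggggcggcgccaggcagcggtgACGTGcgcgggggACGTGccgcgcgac

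The motif was in 18 of the 41 windows of members (43.9%) and in 16.6% of the windows of all 32851 promoters. Windows of the same gene can overlap and share a site, as for Aldoa. The windows of all promoters were not matched in G and C to those of members, so the shares show no enrichment of the motif by themselves. The shown windows have 67.2%, 69.6% and 73.6% G and C. Such a match is a description of letters and not of a bound site, and a second start of Ldha had none. A fixed list of 10 hypoxia response genes summed to 189 and 194 CPM in Hcrt-high, 273 and 292 CPM in Pmch-high and 202 and 212 CPM in other excitatory neurons. Of 8 tested with edgeR, 2 were higher and 2 lower in Hcrt-high neurons, against 20.8% and 19.0% of all genes. In Pmch-high neurons 3 were higher and 0 lower, against 19.9% and 17.8% of all genes.

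In Hcrt-high neurons 9 of 28 members tested were higher than in other excitatory neurons (32.1%, against 20.8% of all genes) and 5 lower (17.9%, against 19.0%). The median log2 fold change was 0.12 over the members and -0.01 over all genes. With library totals the counts were 6 and 8, against 12.2% and 33.7% of all genes. Hk2, on chromosome 6 from 82725025 to 82774454, had 19.3 and 18.4 CPM in Hcrt-high and 1.02 and 1.72 CPM in other excitatory neurons. It was 15.6-fold higher (log2 3.97 ± 0.43, adjusted p = 3.43e-09), and its UMIs were in 19 of 83 and 18 of 83 cells against 5 of 600 and 8 of 687. After thinning, 5 of 83 and 1 of 83 Hcrt-high cells were left with a UMI, against 3 of 600 and 2 of 687, so the share then rests on few UMIs. No cell held more than 3. Ldha had 192 and 187 CPM against 119 and 111 CPM (log2 0.98 ± 0.11, adjusted p = 3.64e-09). Pkm had 806 and 890 CPM against 682 and 614 CPM (log2 0.64 ± 0.12), and Hk1 156 and 179 CPM against 139 and 125 CPM (log2 0.60 ± 0.11). Pgam1 and Eno1 were higher by log2 0.56 and 0.54, and these 6 calls were kept in every alternative in which the gene was tested.

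Lower in Hcrt-high neurons were Aldoc, with 111 and 130 CPM against 255 and 251 CPM (log2 -0.82 ± 0.12), and Pfkl and Pfkp, 2 of the 3 phosphofructokinase genes (log2 -0.66 ± 0.17 and -0.55 ± 0.13). Ldhb had 91.2 and 82.6 CPM against 171 and 127 CPM (log2 -0.51 ± 0.12). Pfkfb2 was called lower at 3.51 and 12.5 CPM against 20.5 and 16.7 CPM, with log2 values of -2.13 and -0.12 in the libraries, and 4 of 11 alternatives lost that call. Aldoa, Gpi1 and Slc2a3, higher by log2 0.31 to 0.43, lost their calls with library totals. Slc16a3 was not called. Median UMIs per cell were 16101 and 18593 in Hcrt-high, 14237 and 12947 in Pmch-high and 7822 and 8095 in other excitatory neurons. Early response genes summed to 440 and 719 CPM against 310 and 298 CPM, and their part was not tested. Thinning each cell to 2000 UMIs gave 5 higher and 0 lower of 23 members in Hcrt-high neurons, against 6.71% and 5.85% of all genes. Among 47 other pathway genes 12 were higher and 6 lower. Slc2a13 had 1054 and 1076 CPM against 149 and 145 CPM, 8.61-fold apart, and Slc2a8, a glucose transporter, 33.3 and 47.2 CPM against 18.2 and 22.3 CPM. Gpd1l, Pdk2 and Ldhd, a D-lactate dehydrogenase, were lower.

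In Pmch-high neurons 11 of 28 members were higher (39.3%, against 19.9% of all genes) and 3 lower (10.7%, against 17.8%), with a median of 0.15 over the members and -0.02 over all genes. With library totals these were 6 and 8, against 10.9% and 32.6% of all genes. Slc16a3, on chromosome 11 from 120948480 to 120960868, had 11.2 and 15.1 CPM against 1.02 and 1.89 CPM, and was 10.6-fold higher (log2 3.40 ± 0.48, adjusted p = 1.93e-08). Its UMIs were in 14 of 85 and 12 of 61 Pmch-high cells against 5 of 600 and 11 of 687. After thinning these were 2 of 84 and 0 of 61 against 1 of 600 and 2 of 687, too few to read. Pfkp, the platelet form of phosphofructokinase, had 239 and 278 CPM against 120 and 121 CPM (log2 1.36 ± 0.09, adjusted p = 2.71e-20). Ldha had 239 and 220.4 CPM against 119 and 111 CPM (log2 1.26 ± 0.09, adjusted p = 1.55e-18). These 3 calls were kept in every alternative in which the gene was tested, and the groups did not overlap.

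Pygb had 125 and 169.5 CPM against 91.6 and 92.1 CPM (log2 0.93 ± 0.11) and Slc2a3 155 and 161 CPM against 124 and 117 CPM (log2 0.65 ± 0.10). Both lost the call after thinning. Ldhb was lower, with 79.5 and 81.0 CPM against 171 and 127 CPM (log2 -0.64 ± 0.12), as was Aldoc, with 139 and 154 CPM against 255 and 251 CPM (log2 -0.53 ± 0.10). Tpi1, Aldoa, Pfkl, Eno1, Gapdh and Gpi1 were higher by log2 0.24 to 0.50, and with library totals Tpi1 and Aldoa turned to -0.03 and -0.0038, neither called. DESeq2 called 7 members higher and 1 lower, against 8.09% and 3.82% of all genes. Thinning left 3 and 1 of 23, against 5.53% and 3.26%. Of 9 mature oligodendrocyte markers 7 were called higher and 1 lower in Pmch-high neurons, with a sum of 1707 and 1105 CPM against 1327 and 1682 CPM and none at 0. Of 11 early response genes 7 were lower, with 165 and 71.6 CPM against 310 and 298 CPM, and the part of these lists was not tested. Among 47 other pathway genes 9 were higher and 2 lower. Bsg had 848 and 873 CPM against 515 and 477 CPM, Pgm2l1 449.8 and 461 CPM against 294 and 300.5 CPM, and Slc2a13 348 and 300.5 CPM against 149 and 145 CPM. The lower genes were Mpc1 and Mpc2, the subunits of the mitochondrial pyruvate carrier.

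**Figure D3:**
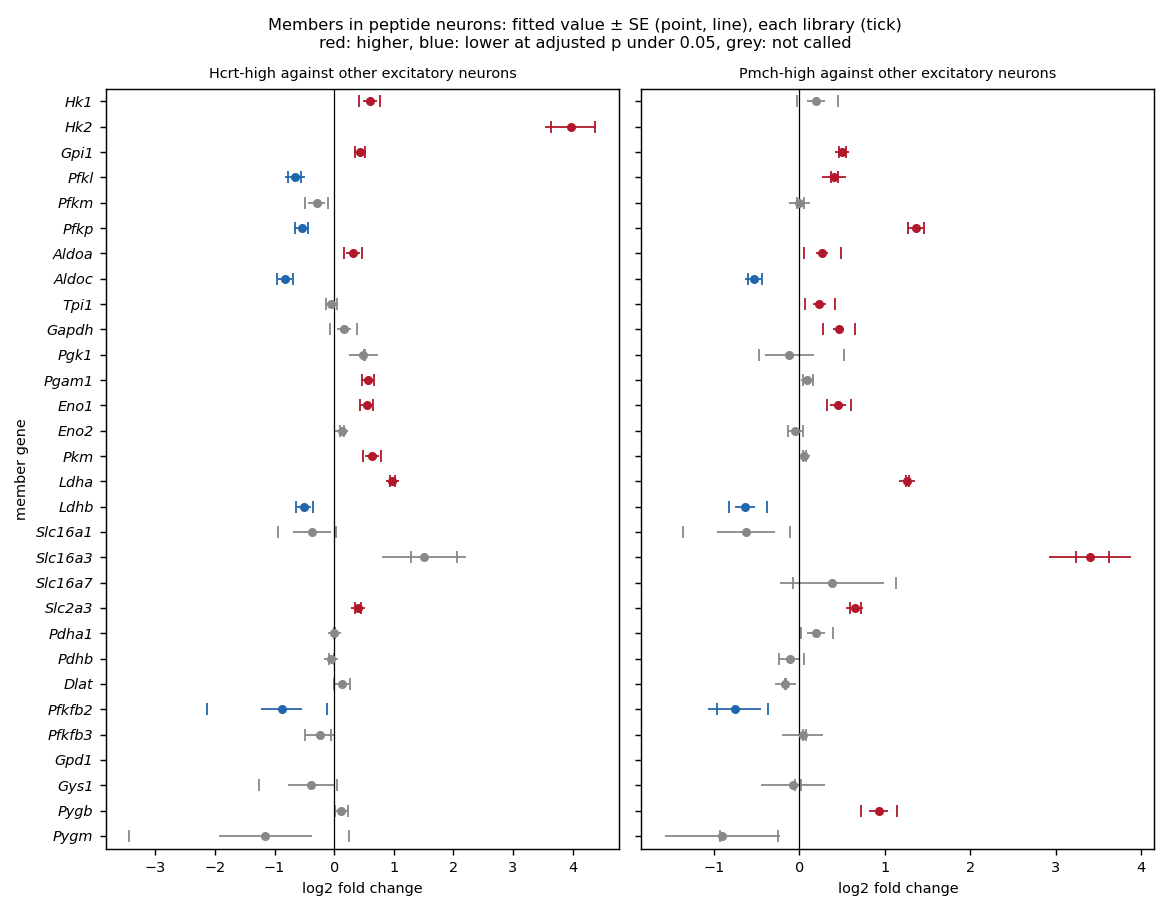
Log2 fold change of each tested member in Hcrt-high (left) and Pmch-high (right) neurons against the same other excitatory neurons, with SE (line) and the value of each library (ticks); red is called higher, blue called lower and grey not called. Hk2 lies at 3.97 on the left, Slc16a3 at 3.40 on the right, and Ldha near 1 on both sides with Ldhb and Aldoc below 0.

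Between the peptide neurons themselves, 4 of 27 members were higher in Hcrt-high (14.8%, against 16.2% of all genes) and 7 lower (25.9%, against 17.8%). Hk2 had 0.697 and 0 CPM in Pmch-high neurons, which is 1 UMI in all, against 22 and 25 UMIs in Hcrt-high neurons. Pfkp was 3.79-fold lower in Hcrt-high neurons (63.2 and 74.5 CPM against 239 and 278 CPM, log2 -1.92 ± 0.14, adjusted p = 2.28e-43). Pfkl (24.6 and 36.9 CPM against 57.2 and 70.6 CPM, log2 -1.07 ± 0.20), Slc16a3 (log2 -1.86 ± 0.55) and Pygb (log2 -0.83 ± 0.14) were also lower. Pkm had 806 and 890 CPM against 582 and 543 CPM (log2 0.58 ± 0.11). The Hk2, Pfkp and Pkm calls were kept in every alternative in which the gene was tested. The Ldha difference was small (log2 -0.29 ± 0.12, adjusted p = 0.0424), and library totals, DESeq2 and the joint fit did not call it. Of the other pathway genes 9 of 40 were higher, with Slc2a13 and Emb first, and 4 lower, with Gpd1l, Pgm2l1 and Bpgm first.

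Inhibitory and excitatory neurons differed little in most members. Of 30 members 11 were higher in inhibitory neurons (36.7%, against 11.3% of all genes) and 2 lower (6.67%, against 13.3%), with a median of 0.12 over the members and 0.01 over all genes. DESeq2 called 1 in each direction, against 1.40% of all genes higher and 2.82% lower. The joint fit called 1 of 29 higher and 0 lower, against 1.46% and 2.13%. Its excitatory neurons were those without Hcrt-high and Pmch-high cells, so it differs in cells as well as in model. Aldoc was kept in all 11 alternatives: it had 438 and 395 CPM against 217 and 222 CPM (log2 0.88 ± 0.04), and 0.71 with the peptide neurons left out. Ldha was lower, with 103 and 91.7 CPM against 149 and 129 CPM (log2 -0.55 ± 0.05), and -0.24 without the peptide neurons. Hk2 was lower by log2 -1.64 ± 0.36, a call that was lost without the peptide neurons (log2 -0.07, adjusted p = 0.956). The other 10 higher calls lay between log2 0.12 and 0.41, and 5 of them were lost without the peptide neurons. Of the other pathway genes 5 of 50 were higher and 7 lower. Phka2, a phosphorylase kinase subunit, had 22.7 and 21.4 CPM against 11.98 and 12.6 CPM, Phkb and Pdhx were higher by smaller folds, and Slc2a13 (121 and 108 CPM against 313 and 299 CPM) and Slc2a8 were lower.

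Across the 13 neuron clusters the 15 glycolysis members summed to between 2865 and 2664 CPM, in a cluster led by Ebf1, Npy and Npw, and 5516 and 5235 CPM, in a cluster led by Tac2 with Slc32a1 and Gad1. The first was also the lowest cluster for Pfkm, Pfkp, Aldoa, Tpi1, Gapdh, Pgam1, Eno1, Eno2, Pkm and Slc2a3, among others. Aldoc ranged from 106 and 128 CPM in the Hcrt cluster to 548 and 506 CPM in the Tac2 cluster. Pfkp ranged from 60.8 and 51.4 CPM to 241 and 281 CPM in the Pmch cluster, and Ldha from 76.3 and 80.0 CPM to 244 and 228 CPM, again in the Pmch cluster. For Pdha1, Pdhb, Dlat, Pkm, Eno2, Ldhb and Pfkm the highest cluster was that led by Trh, Cbln1 and Asic4, with Pdha1 at 265 and 255 CPM. These ranges are descriptions of clusters and carry no test.

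Shares of isoforms within a step are free of the scaling between groups. Aldoc made up 85.4% and 82.9% of the UMIs of Aldoa and Aldoc in astrocytes, 33.8% and 35.1% in neurons, 15.6% and 17.1% in Hcrt-high and 20.3% and 19.5% in Pmch-high neurons, with 53.3% and 58.2% in precursors. Eno2 made up 73.5% and 73.6% of enolase UMIs in neurons, 18.3% and 16.1% in astrocytes and 36.7% and 38.9% in mature oligodendrocytes. It was 19.4% and 60.2% in the microglia of the libraries. Ldhb made up 55.3% and 53.6% of lactate dehydrogenase UMIs in neurons and 58.8% and 53.3% in other excitatory neurons. It made up 32.2% and 30.6% in Hcrt-high, 24.9% and 26.9% in Pmch-high and 11.6% and 16.3% in endothelial cells. In astrocytes it was 90.2% (exact 95% interval 79.8 to 96.3) of 61 UMIs and 73.9% (64.7 to 81.8) of 111 UMIs. The share was lower in endothelial cells than in Pmch-high neurons, and lower there than in Hcrt-high neurons, in both libraries. The intervals of the peptide neurons overlapped in both, and those of endothelial cells and Pmch-high neurons in the library labelled female. Pfkp was 63.4% and 66.4% of phosphofructokinase UMIs in Pmch-high and 42.9% and 42.8% in Hcrt-high neurons. Pfkm was 50.6% and 59.0% in astrocytes and 32.6% and 28.8% in neurons.

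**Figure D4:**
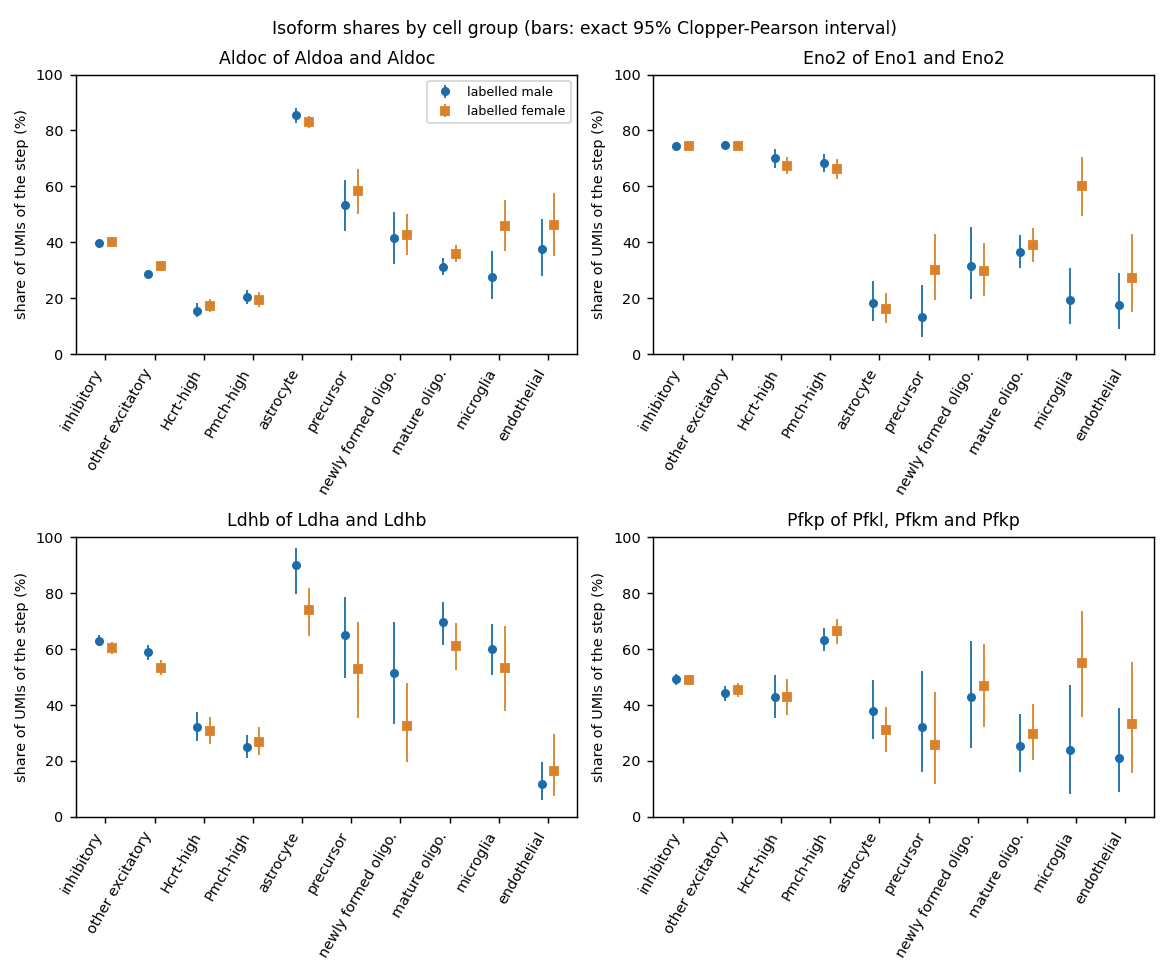
Share in percent of the UMIs of an enzyme step that fell to Aldoc, Eno2, Ldhb or Pfkp (points, with exact 95% Clopper-Pearson intervals that cover counting error only) in 10 cell groups of the library labelled male (circles) and labelled female (squares). Aldoc and Ldhb shares are highest in astrocytes, with overlapping Ldhb intervals in the precursors, mature oligodendrocytes and microglia of the library labelled female, the Eno2 share is above 60% in the 4 neuron groups, and the Pfkp share is highest in Pmch-high neurons, with overlapping intervals in the microglia of the library labelled female and in newly formed oligodendrocytes of both libraries.

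Slc16a7 had at most 9.79 CPM in any cell group and library, and was called in 1 comparison, mature oligodendrocytes against neurons. Pfkfb2, which like Pfkfb3 regulates phosphofructokinase, ranged from 0 CPM in the microglia and endothelial cells of the library labelled female to 24.9 CPM in its precursors. Pgk1, phosphoglycerate kinase, is encoded on the X chromosome from 106187100 to 106203699, and its level differed between the libraries. It had 25.4 and 13.4 CPM in neurons, a ratio of 1.90 (95% interval 1.63 to 2.22), with 14.0 and 6.78 CPM in mature oligodendrocytes. It had 13.2 and 14.1 CPM in Pmch-high neurons. Pdha1, also on the X chromosome, had 265 and 255 CPM in its highest neuron cluster and 78.2 and 72.3 CPM in its lowest. The cause of the Pgk1 difference was not tested. Near-identical copies such as Pgk1-rs7 (22 and 16 UMIs) and Eno1b (96 and 50 UMIs) had few UMIs, and how reads shared with them were counted is not given in the sources used here. In GENCODE M21, 13 of the 30 members overlap a gene on the opposite strand: Hk1, Hk2, Gpi1, Pfkm, Pfkp, Aldoa, Tpi1, Gapdh, Pdha1, Pfkfb2, Pfkfb3, Gpd1 and Gys1. The use of strand in counting is not given, so reads of these neighbours cannot be told apart here.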

How the data were processed

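The authors deposited 1 matrix of UMI counts per library, made with Cell Ranger 2.2.0 per the submitters' processing notes, with gene identifiers of the mouse genome GRCm38 (mm10). The annotation release was not given in the sources used here, nor was the use of strand. Counts were used as deposited. Gene positions are from GENCODE M21, by identifier.

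Cells with under 500 genes or over 20% mitochondrial UMIs were removed (163 and 163). Doublets were scored with Scrublet, whose own call marked 40 and 12 cells, so the highest scores were removed at 0.8% per 1000 cells (90 and 110). Cells were clustered with scanpy 1.11.5 and leidenalg 0.10.2 (2000 variable genes, 30 components, 15 neighbours, resolution 1). Clusters were named from markers, and 2.54% and 2.98% of cells stayed unnamed.

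UMIs were summed per library and group of at least 10 cells and tested with edgeR 4.0.16 (R 4.3.3; quasi-likelihood, TMM, filterByExpr, library as a block, Benjamini-Hochberg over all genes tested). Each fit has 4 sums and 1 residual degree of freedom. In the fits of inhibitory against excitatory, Hcrt-high against Pmch-high, astrocytes and microglia against neurons, and endothelial cells against astrocytes, the prior degrees of freedom were infinite, and the spread was shared by all genes. The library block pairs the groups, since both groups of a fit come from the same pool. On simulated counts for Hcrt-high against other excitatory neurons (11829 genes), 72% of genes changed 2-fold and 50% of those changed 1.5-fold were called. For microglia against neurons (13580 genes) 0% of genes changed 2-fold and 46% of those changed 4-fold were called. The simulated counts had 1 spread for all genes, so these rates can be too high for genes with a larger spread.

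Poisson and Clopper-Pearson intervals are exact, at 95%, and cover counting error only, as does the floor of 3 UMIs. Alternatives were RLE factors, library totals, no filter on low counts, DESeq2 1.42.0 and a joint fit of 10 groups (20 sums). Others were thinning to 2000 UMIs, a stricter filter (1000 genes, 10% mitochondrial), no doublet removal, resolution 2 and members used to cluster. A 1% peptide gate, peptide neurons left out and each library alone were also tried. The joint fit took the other excitatory neurons as excitatory, and the mean of inhibitory and other excitatory neurons as neurons.

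Called members that reached 20 CPM in either group were to be named with values, and of the other pathway genes the 3 with the largest fold in each direction at that level. Values of 3 of these other genes are not reported here. Slc16a3 in Pmch-high neurons and Hk2 in Hcrt-high neurons are below 20 CPM and were named after their values were seen. The members, lists and comparisons were chosen with earlier results of these data known.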

Additional observations from a re-analysis of the deposited data

Results flagged for a closer look

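Pfkfb3 was called higher in inhibitory than in excitatory neurons, but the libraries went opposite ways. The log2 difference was 0.882 in the library labelled male (28.9 against 15.2 CPM) and -0.111 in the library labelled female (24.0 against 25.1 CPM). The difference between the libraries was not tested.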

How the results depend on the processing

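Of 172 calls over the 11 comparisons, 85 were kept in every alternative in which the gene was tested. With each library alone there are folds and no test, so counts of calls were not recomputed without a library. The library was the block of each fit, and no fit without it was made.

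Counts of members called higher moved by over 1.5 times as follows. For settings whose share of all genes is not given here or above, a move cannot be told apart from a general change in calls. For inhibitory against excitatory neurons 11 became 1 with DESeq2, 1 in the joint fit and 4 after thinning. For Hcrt-high neurons 9 became 5 after thinning. For Pmch-high neurons 11 became 6 with library totals, 7 with DESeq2 and 3 after thinning. For Hcrt-high against Pmch-high neurons 4 became 2 with DESeq2 and 2 after thinning. DESeq2 called 403 of all genes higher there, against 1572 in the main fit. For astrocytes 11 became 6 against neurons and 16 became 6 against mature oligodendrocytes under the stricter filter. For mature oligodendrocytes against neurons 5 became 3 with library totals, DESeq2, thinning and the stricter filter. Against precursors 7 became 2 with library totals and DESeq2. For microglia 1 became 6 in the joint fit and 2 without doublet removal.

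Counts called lower moved likewise, with the same limit. For inhibitory neurons 2 became 1 with DESeq2, after thinning and without peptide neurons, and 0 in the joint fit. For Hcrt-high neurons 5 became 8 with library totals, 1 with DESeq2 and 0 after thinning. For Pmch-high neurons 3 became 8, 1 and 1 in the same order. For Hcrt-high against Pmch-high neurons 7 became 1 with DESeq2, 4 in the joint fit and 1 after thinning. DESeq2 called 457 of all genes lower there, against 1725 in the main fit. For astrocytes against neurons 13 became 7 under the stricter filter. For microglia 2 became 0 with library totals, DESeq2, the stricter filter and resolution 2, 1 with no filter on low counts and with members used to cluster, and 9 in the joint fit and after thinning. For endothelial cells 19 became 12 against neurons without doublet removal, and 14 became 5 against astrocytes under the stricter filter. For mature oligodendrocytes against precursors 7 became 16 with library totals and 1 with DESeq2. For astrocytes against mature oligodendrocytes 1 became 3 with no filter on low counts and 2 in the joint fit.

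Directions turned in 19 of the values. With library totals, mature oligodendrocytes against precursors gave Pdha1 -0.65, Tpi1 -0.60, Gapdh -0.044, Gpi1 -0.045, Aldoa -0.37, Pkm -0.44 and Pgam1 -0.63. Against neurons Pfkfb2 was -0.71, and in Pmch-high neurons Tpi1 was -0.030, Aldoa -0.0038 and Pkm -0.21. Under the stricter filter astrocytes against neurons gave Gapdh -0.42, Ldhb -0.70 and Gys1 -0.24. After thinning Pfkfb2 in Pmch-high neurons was 0.055, and Hcrt-high against Pmch-high neurons gave Gapdh 0.071 and Ldha 0.050. Without doublet removal Eno2 in endothelial cells against astrocytes was 1.05, and Pfkfb3 in inhibitory neurons was -0.11 in the library labelled female alone and 0.88 in the other. The stricter filter and thinning leave fewer cells or UMIs. The cause of the other changes was not tested. Depth limits genes with few UMIs, such as Slc16a3 and Slc16a7. Microglia, endothelial cells, precursors and Hcrt-high and Pmch-high neurons have under 100 cells a library.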
